A study of Parasteatoda tepidariorum with 20 samples.

Results

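The germ disc stages and the germ band stages of the common house spider *Parasteatoda tepidariorum* were compared by RNA-Seq. The comparison held 12 of the 20 samples of the series, chosen by the stage in their labels. The 6 germ disc samples were stage (st) 4, st5 early and st5 late, and the 6 germ band samples were st7, st8 and st10, each stage in 2 developmental series. In hours after egg laying (h AEL), st4 was taken at 25 to 26, st5 early at 31 to 32, st5 late at 36 to 37, st7 at 50, st8 at 60 and st10 at 78. St6, at which the disc gives way to the band, was left out of the comparison. All samples were untreated whole embryos of the isolate Osaka, incubated at 1 temperature. Each series came from its own pair of parents, and each library was made from the poly(A) mRNA of a pool of embryos. The p-values given for gene models in the main fit therefore measure the spread between such pools from 2 pairs.

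In the germ disc, the cells of the spider embryo are gathered in a single round sheet at one pole of the egg, and a cell cluster, the cumulus, moves below this sheet from its centre towards its rim and breaks its radial symmetry. The disc is then remodelled into the germ band, an elongated sheet with an anterior to posterior axis that is divided into segments, forms limb buds and begins to build organs. Hedgehog signalling from the disc rim and Decapentaplegic (Dpp) signalling from the cumulus pattern the disc, Delta and Notch signalling acts in its caudal part, and Hox and other homeobox genes later give the segments of the band their identity.

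The 12 libraries held 9384547 to 17019009 reads, of which 77.63 to 85.35% lay on gene models. The germ disc libraries were shallower (9384547 to 13259081 reads) than the germ band libraries (13199110 to 17019009 reads), so depth moved with the phase. Abundance was deposited as RPKM, that is, reads scaled to exon length and to the size of the library. At the median exon length of 1721 bases, 1 read equals 0.0341 to 0.0619 RPKM, and 3 reads, taken as the smallest level that the depth can show, equal 0.1024 to 0.1857 RPKM. These limits cover counting error only. Libraries of the same phase correlated with r of 0.891 to 0.988 across gene models (median 0.957 over 30 pairs), and libraries of different phases with r of 0.678 to 0.954 (median 0.837 over 36 pairs). Between 10271 and 10516 gene models reached 1 RPKM in a germ disc sample, and between 10590 and 10983 in a germ band sample. The groups did not overlap, and their means differed by 354.0 gene models (exact permutation test over the 924 arrangements of the samples, two-sided p = 0.00216, the smallest it allows). Within each series the means differed by 325.3 and 382.7, with an exact permutation p = 0.1 in both, the smallest that 3 against 3 samples allow. The part of depth in this difference was not tested.

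Of the 27990 gene models, 20082 had a read in the 12 samples and 12077 reached 1 RPKM in at least 2 of them and were tested. Changes are differences between the means of log2(RPKM + 1), germ band minus germ disc, with each of the 6 stages given its own mean. They were tested with limma, with p-values adjusted by Benjamini-Hochberg over all 12077, and a gene model was called at an adjusted p under 0.05. This scale understates the change of a gene model that is near 0 in one phase. Called gene models made up 62.2% of those tested: 4457 (36.9%) rose towards the germ band stages and 3060 (25.3%) fell, and 4560 were not called. The median change over all tested was 0.11, and the median size of a change was 0.52. The same contrast, tested with limma's voom on the reads recovered from the RPKM values, gave 4354 that rose and 3076 that fell. In bulk samples, fewer cells of a type and less RNA per cell cannot be told apart.

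A gene model was taken to mark a phase when it was called and its lowest sample in that phase lay above its highest sample in the other. By this rule 2081 gene models (17.2%) marked the germ band stages and 1454 (12%) the germ disc stages. A further 2376 rose and 1606 fell with overlap between the phases. Markers of the germ disc had a median of 18.5 RPKM on their high side and those of the germ band 12.2 RPKM, while all gene models tested had a median of 8.19 RPKM. A change of at least 2 together with at least 5 RPKM in all 6 samples of the high side was met by 237 germ band markers and 106 germ disc markers, called strong markers here. An informative description was given for 83.8% of the germ band markers, 65.8% of the germ disc markers and 75.1% of all tested. Among the strong markers, 48 of 237 and 47 of 106 had none. The 2 with the largest changes in each phase were aug3.g9240 (from 2.28 RPKM [0.321 to 26.98] to 451 RPKM [233 to 728]) and aug3.g7001 (from 0.209 RPKM [0 to 0.957] to 113 RPKM [19.96 to 562]) for the germ band, and aug3.g592 (from 559.7 RPKM [57.3 to 2735] to 5.16 RPKM [0.745 to 10.8]) and aug3.g4611 (from 141 RPKM [40.1 to 246] to 0.393 RPKM [0 to 2.48]) for the germ disc. Here and below a level is the median of the 6 samples of a phase, with the lowest and the highest in brackets. At st1 to st3, before the germ disc, aug3.g592 held 3225 to 7221 RPKM and aug3.g4611 held 0.113 to 54.4 RPKM.

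Families were collected by the words in the description of each gene model. Their counts refer to the members that passed the filter. A member near 0 in one phase passed only through the other and had to differ, so the number listed is given as well. A family's share of calls is to be read against the 36.9% higher and 25.3% lower among all tested.

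**Figure D1:**
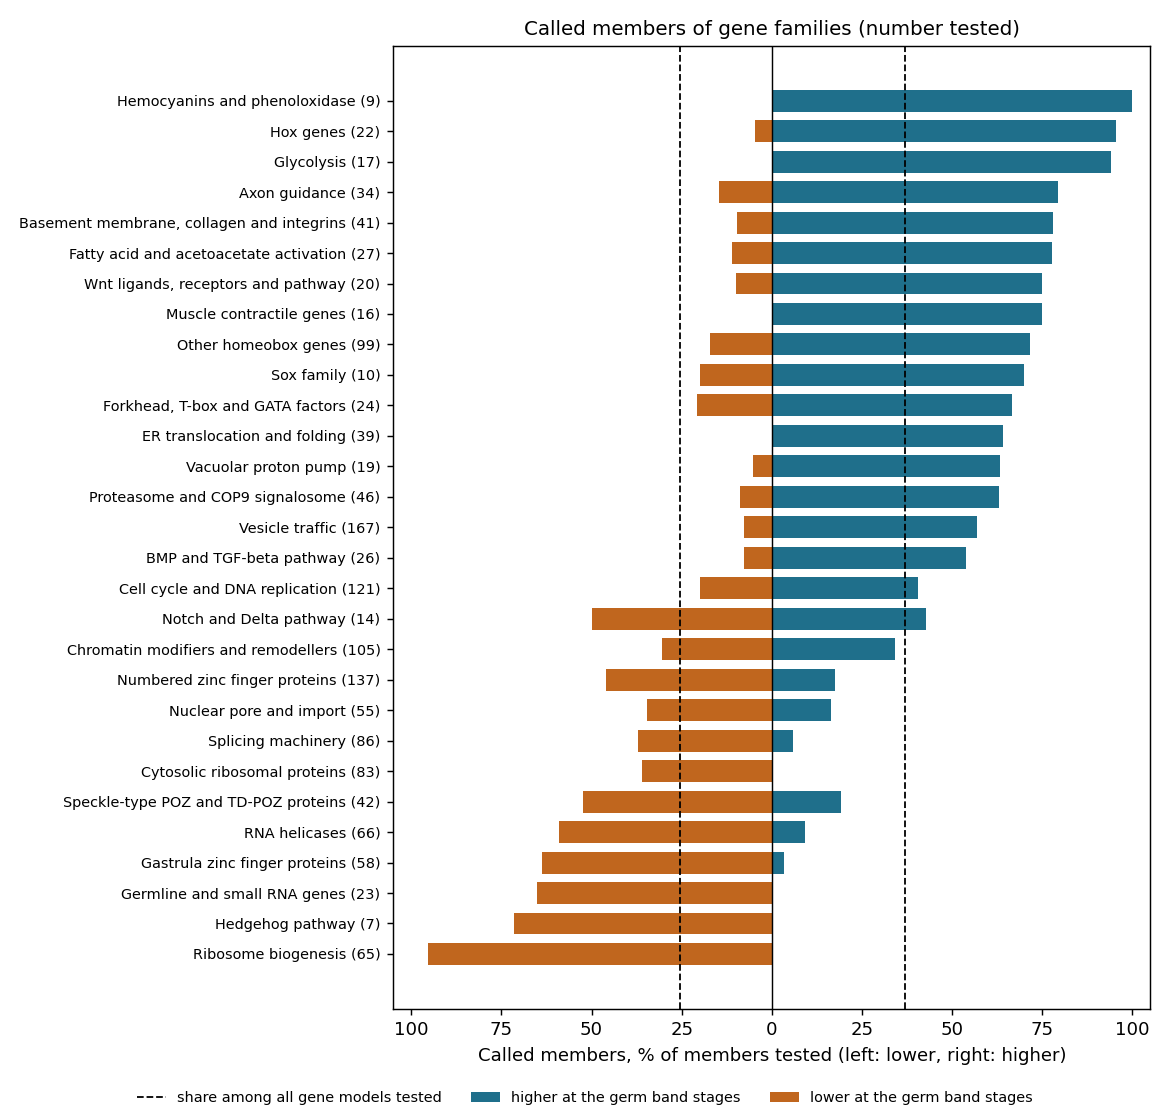
Share of the tested members of 29 gene families (number tested in parentheses) that were higher (blue, to the right) or lower (brown, to the left) at the germ band stages, in percent of the members tested, with limma at an adjusted p under 0.05. Dashed lines mark the shares among all 12077 gene models tested, 36.9% higher and 25.3% lower. Hox genes (95.5% higher) and glycolysis (94.1% higher) stand near one end, and ribosome biogenesis (95.4% lower) at the other.

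The largest fall among described gene models was shown by 4 neighbours at one end of scaffold 626. The first of them, aug3.g5177 (inner centromere protein A-like, named for a scaffold of the complex that guides chromosome segregation), spans 5596 to 27564 (plus strand). It had 327 RPKM (62.7 to 658) in the germ disc samples and 0.228 RPKM (0.061 to 1.1) in the germ band samples. It fell by 7.45 on the log2 scale (SE 0.13, adjusted p = 1.5e-09 from limma). Every germ disc sample was therefore far above every germ band sample, and the 2 st5 late samples were the lowest of the 6, at 62.7 and 67.2 RPKM. The other 3 neighbours are described as kinesin heavy chain, the motor subunit of conventional kinesin, and extend up to 202863. For aug3.g5179 the levels were 369 RPKM (36.2 to 790.4) and 0.188 RPKM (0.0245 to 0.76), a fall by 7.37 on the log2 scale (SE 0.13, adjusted p = 1.5e-09). For aug3.g5180 and aug3.g5178 the medians went from 141 to 0.256 RPKM and from 182 to 0.64 RPKM. These 4 gene models were near 0 at st1, at 0.173 and 0.0709 RPKM for aug3.g5177, and highest of all stages at st4. Another kinesin model, aug3.g11117 on scaffold 1264, had 80.1 RPKM (13.8 to 112) in the germ disc and 0.378 RPKM (0.0505 to 1.47) in the germ band, with no overlap. Of 12 kinesin heavy chain models listed, 8 were tested: 6 fell and 2 rose. This list was made after values had been seen and includes leading markers named above, so its counts are a description. The models that rose include aug3.g638 (29.6 RPKM [17.6 to 35.3] against 42.97 RPKM [38.1 to 47.3]). Its change of 0.65 was not called in the fit of all 20 samples (adjusted p = 0.051). If some kinesin models are near-identical copies, reads may have been lost or split among them, since alignments were filtered for uniqueness. Their similarity was not measured.

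The other leading germ disc markers had varied descriptions. aug3.g19992 (RHC1A, named after a plant ubiquitin ligase) went from 155 RPKM (16.6 to 712) to 1.02 RPKM (0.0544 to 2.99) and fell by 6.08 on the log2 scale (SE 0.21, adjusted p = 3e-08). It was already falling when the disc formed, since the 6 samples of st1 to st3 held 1928 to 4314 RPKM. aug3.g25958 (ABHD11, an alpha/beta hydrolase that is mitochondrial in mammals) went from 268 RPKM (107 to 354) to 4.55 RPKM (0 to 12.4), a fall by 5.61 on the log2 scale (SE 0.18, adjusted p = 2.6e-08). Of 49 ABHD11 models listed, 17 were tested, of which 9 fell and 6 rose. This list, too, was made after values had been seen and includes aug3.g25958. The risers included aug3.g14453, from 0 to 11.96 RPKM in the medians, so the name covers gene models of both phases. aug3.g15186 (myotubularin-related protein 14, a phosphoinositide phosphatase) had 122.8 RPKM (6.07 to 529) and 0.795 RPKM (0.0386 to 2.38). aug3.g2069 (enolase-phosphatase E1-like, an enzyme of methionine salvage) had 137 RPKM (38.1 to 365) and 2.43 RPKM (0.0739 to 6.82). Neither overlapped between the phases, and they fell by 5.46 and 5.45 on the log2 scale. The remaining leading markers were aug3.g14946 (described as a repetitive proline-rich cell wall protein), aug3.g25858 (BTB/POZ domain-containing protein 9) and aug3.g18439 (autophagy-related protein 8f-like, of a ubiquitin-like family that tags membranes for autophagy). Their medians went from 58.5 to 1.52, from 111 to 2.32 and from 25.9 to 0 RPKM. At st1 to st3 aug3.g25958 held 600 to 1416 RPKM and aug3.g15186 held 627 to 2219 RPKM. In the same samples aug3.g2069 held 377 to 1087 RPKM and aug3.g14946 held 1481 to 3427 RPKM. All of these levels exceeded those of the germ disc samples. In contrast, aug3.g25858 held 0 to 0.376 RPKM there and aug3.g18439 held 0 to 61.6 RPKM. Of these 12 leading gene models each kept its call in every alternative tried.

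**Figure D2:**
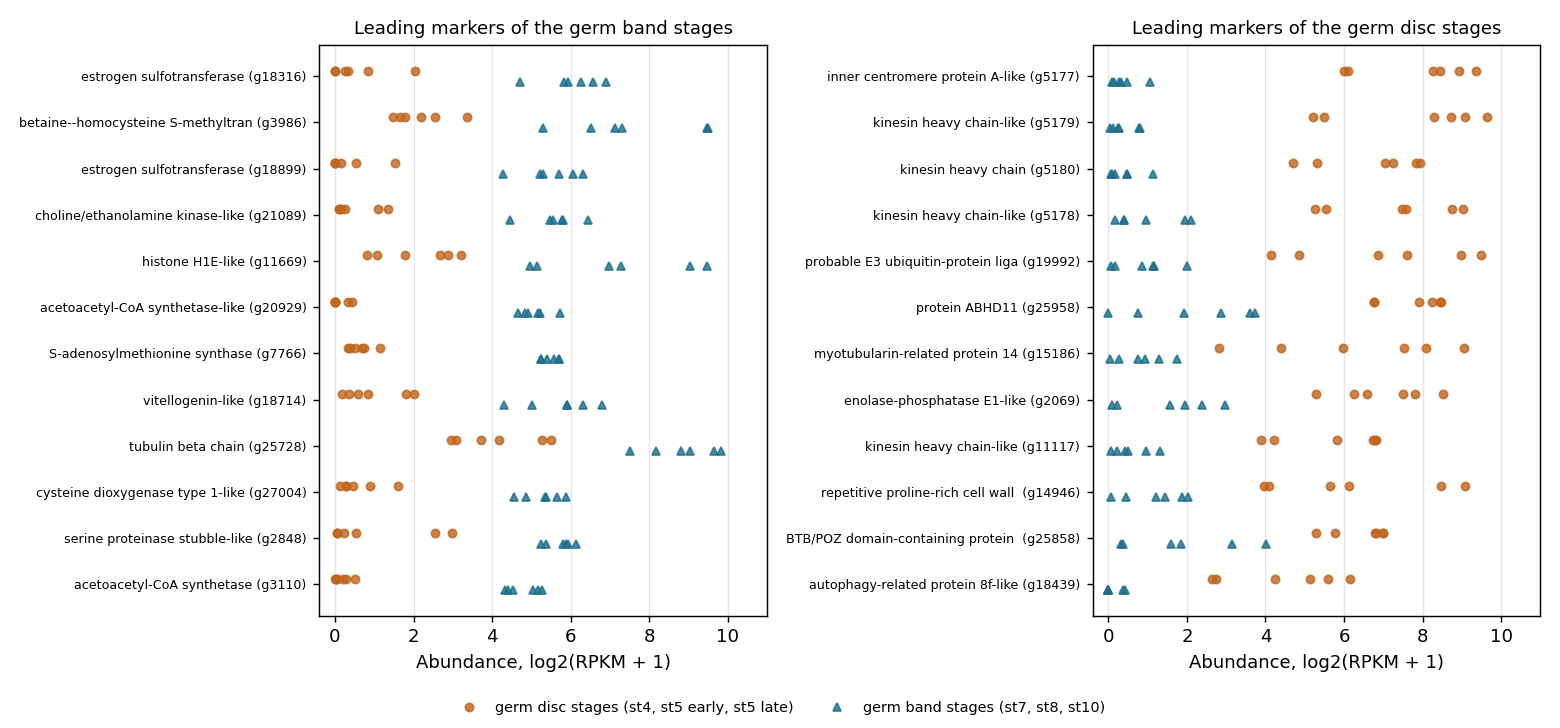
Abundance of the 12 leading described markers of each phase, as log2(RPKM + 1) on the horizontal axis, with 1 point for each of the 6 germ disc samples (brown circles) and the 6 germ band samples (blue triangles). The circles and triangles overlap in no gene model shown. The largest separation on the right is that of the inner centromere model, with 62.7 to 658 RPKM against 0.061 to 1.1 RPKM.

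Genes that build ribosomes fell almost throughout. Ribosome biogenesis takes place in the nucleolus, where precursor ribosomal RNA is transcribed by RNA polymerase I, cleaved and folded with the help of small nucleolar ribonucleoproteins and helicases. This list was put together after values had been seen, so its direction is a description. Of 66 gene models listed, 65 were tested, 62 fell and none rose at an adjusted p under 0.05 in limma, and 51 marked the germ disc. The count that rose was also 0 at an unadjusted p under 0.05 and with limma's voom on the recovered reads. The median change was -1.42, beside 0.11 over all tested, and the changes ranged from -2.23 to 0.14. Only aug3.g24980 (nucleolar and spindle-associated protein 1, a protein of the mitotic spindle) lay above 0. The largest fall was that of aug3.g4705 (IMP4, a part of the U3 complex that cuts the precursor of the small subunit RNA): 144 RPKM (92.4 to 196) in the germ disc and 30.7 RPKM (12.8 to 49.7) in the germ band. It fell by 2.23 on the log2 scale (SE 0.13, adjusted p = 6.9e-07), and even its lowest germ disc sample exceeded every germ band sample. IMP3, its partner (aug3.g27738), went from 101.3 to 30.1 RPKM in the medians and nucleolar protein 6 (aug3.g16494) from 48.97 to 12.7 RPKM. Summed over the list, these gene models took 1.81% (1.32 to 2.12) in the germ disc samples and 0.653% (0.356 to 0.85) in the germ band samples of all RPKM. The share was highest at st4 in both series and lower at every later germ disc and germ band stage, with the lowest values at st10.

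The same direction held for the RNA helicases, motor proteins that unwind RNA, many of which act on ribosomal RNA precursors. All 66 listed were tested: 39 fell, 6 rose, 26 marked the germ disc and 2 the germ band, with a median change of -0.51. DDX55 (aug3.g9367) went from 77.03 RPKM (52.3 to 90.7) to 17.9 RPKM (10.4 to 28.7) and fell by 1.96 on the log2 scale (SE 0.11, adjusted p = 5.8e-07). DDX27 (aug3.g3701) and DDX52 (aug3.g2886) fell by 1.95 and 1.82 on the log2 scale, and all 3 were separated between the phases. The 2 helicases that marked the germ band instead were aug3.g8527 (YTHDC2, from 5.18 to 12.8 RPKM in the medians) and aug3.g3505 (dbp2, from 81.5 to 109 RPKM). The helicases together took 1.05% (0.858 to 1.18) in the germ disc samples and 0.609% (0.506 to 0.723) in the germ band samples of all RPKM.

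Other parts of the RNA and nuclear machinery leaned the same way with smaller median changes. Of 107 tested gene models for RNA polymerase subunits, mediator and general factors (128 listed), 42 fell and 25 rose, with 18 markers of the germ disc and 7 of the germ band. Their largest fall was that of the RNA polymerase I subunit RPA49 (aug3.g19349), from 29.6 RPKM (14.2 to 63.1) to 8.05 RPKM (3.44 to 12.3). In contrast, a model of the largest RNA polymerase II subunit (aug3.g8481) rose from 0 to 8.37 RPKM. For the nuclear pore and import, 19 of 55 tested (58 listed) fell and 9 rose. Importin alpha-1 (aug3.g9268), an adaptor that carries proteins into the nucleus, fell by 1.77 on the log2 scale, from 48.4 RPKM (32.8 to 66.4) to 13.8 RPKM (8.55 to 19.4). With the replicate block 29 of the 55 fell. Splicing genes counted 32 that fell and 5 that rose among 86 tested (89 listed), with a median change of -0.26. Their count of rises was 8 with the replicate block, and their count of falls was 49 with the block, 21 in the fit of all 20 samples, 20 without both st4 samples and 21 without both st10 samples. Among the 37 gene models of mRNA decay, 11 fell and 11 rose (29.7% each, beside 25.3% that fell and 36.9% that rose of all tested). The 3 largest falls with no overlap were parts of the exosome, the complex that degrades RNA from its 3′ end (aug3.g6845, aug3.g3822 and aug3.g18644, with changes of -1.73, -1.30 and -1.22). The 3 largest rises belonged to deadenylases, which shorten poly(A) tails (aug3.g18261, aug3.g26160 and aug3.g27364).

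The ribosomal proteins themselves had small median changes. Of 83 cytosolic ribosomal protein models tested (84 listed), 30 fell and none rose, the median change was -0.23, and 1 model, aug3.g7878 (60S ribosomal protein L9-like, from 2466 to 1164 RPKM), marked the germ disc. This count rested on single stages: 5 fell without both st10 samples and 15 without both st5 late samples, and 14 fell in the fit of all 20 samples and 10 without the stage term. At an unadjusted p under 0.05, and with voom on the recovered reads, 0 rose. Cytosolic ribosomal protein models took 24.6% (19.1 to 26.9) of all RPKM in germ disc samples and 21.7% (14.9 to 23.9) in germ band samples. These ranges overlapped, but both st10 samples, at 14.9 and 16.4%, lay below every germ disc sample. Mitochondrial ribosomal proteins showed 17 that fell (23.9%) and 8 that rose (11.3%) among 71 tested (75 listed), beside 25.3% and 36.9% of all tested. With the replicate block 33 fell, and 26 did so with median-ratio scaling, while 10 fell without both st10 samples or in the fit of all 20 samples.

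**Figure D3:**
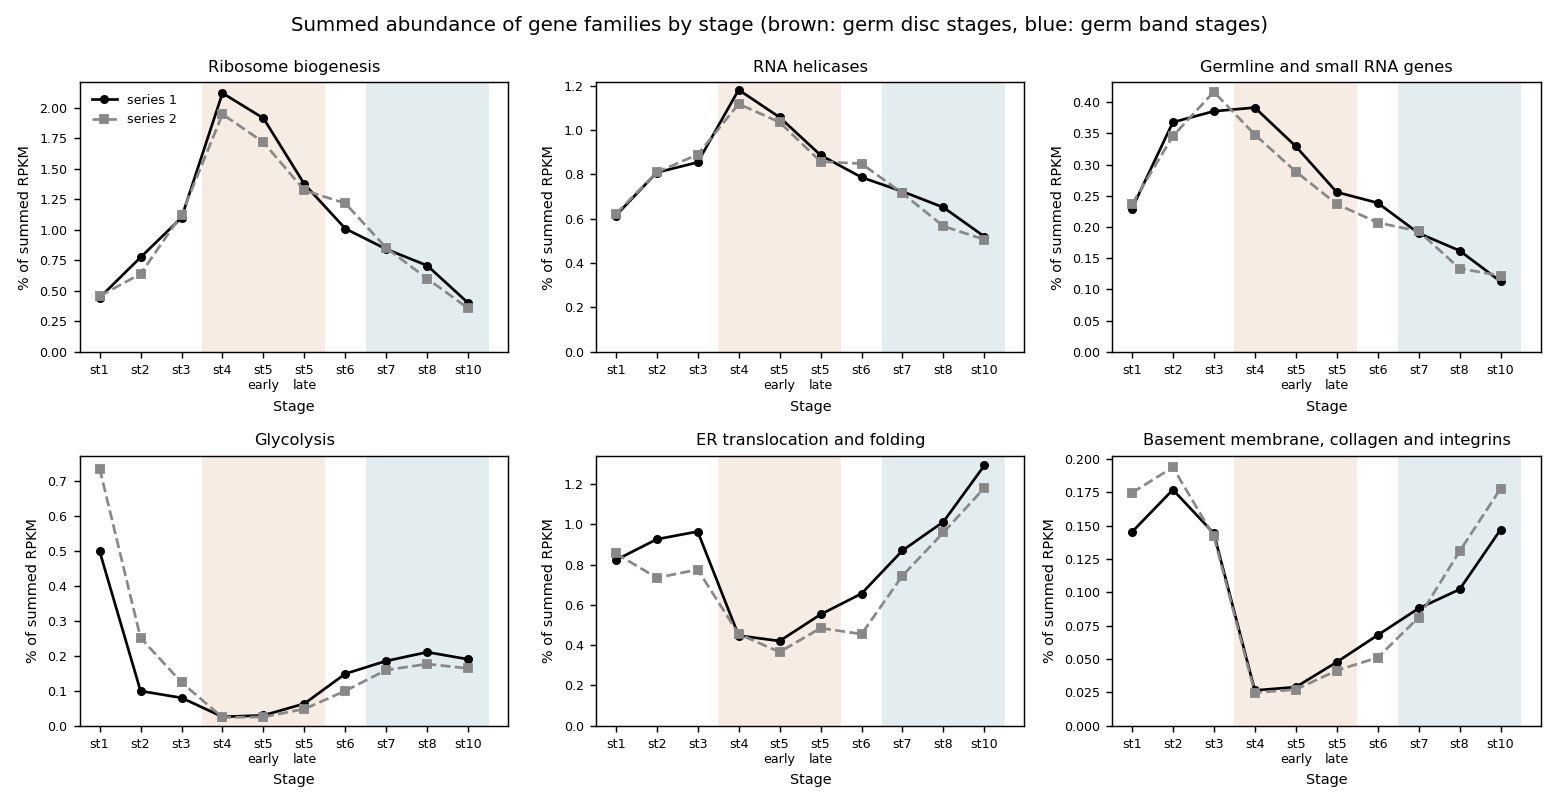
Summed RPKM of 6 gene families as percent of the summed RPKM of all gene models, at each of the 10 stages, in series 1 (black) and series 2 (grey). Brown shading marks the germ disc stages and blue shading the germ band stages. Ribosome biogenesis peaks at st4 (2.12% in series 1), while glycolysis, the endoplasmic reticulum and basement membrane families have their lowest values at the germ disc stages and higher values both before and after them.

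Germline and small RNA genes, which include the piwi proteins that silence transposons and the tudor proteins that bind them, were a further germ disc family. Of 25 listed, 23 were tested and 15 fell, 6 of them as germ disc markers, and none rose (limma, adjusted p under 0.05). At an unadjusted p under 0.05, and with voom on the recovered reads, 0 rose. The median change was -0.53. Tudor domain-containing protein 1 (aug3.g2858) had 158 RPKM (112 to 187) and 51.4 RPKM (29.6 to 79.03) and fell by 1.58 on the log2 scale (SE 0.13, adjusted p = 4.6e-06). The Ago3 type piwi (aug3.g7042) went from 65.5 RPKM (39.4 to 83.1) to 20.96 RPKM (11.98 to 27.9), and piwi-like protein 1 (aug3.g11104) from 614 RPKM (426 to 872) to 263 RPKM (128 to 381). In these 3 no germ band sample reached the lowest germ disc sample. Their list took 0.309% (0.237 to 0.391) in the germ disc samples and 0.148% (0.113 to 0.193) in the germ band samples of all RPKM, and it was higher at st2 and st3 than at any germ band stage. The 8 defining germ line markers among them summed to 702 to 1240 RPKM in germ disc samples and 221 to 595 RPKM in germ band samples.

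Gene families of unknown or poorly known targets also leaned to the germ disc in their counts of calls. Gastrula zinc finger proteins, named after frog proteins with repeated DNA-binding fingers, had 37 that fell and 2 that rose (4 with the replicate block) among 58 tested (59 listed), with a median change of -0.46. Without both st4 samples 23 fell. The largest fall was that of aug3.g26372 (XlCGF67.1-like), from 2.69 RPKM (1.1 to 6.7) to 0.161 RPKM (0 to 0.457). Zinc finger proteins that bear only a number fell in 63 and rose in 24 of 137 tested (163 listed), and 30 marked the germ disc and 6 the germ band. Their count of rises was 14 without both st10 samples. aug3.g6237 (zinc finger protein 1-like) fell by 1.69 on the log2 scale, while aug3.g25953 (zinc finger protein 346) rose by 3.58. Speckle-type POZ and TD-POZ proteins, adaptors that bring substrates to cullin ubiquitin ligases, had 22 that fell and 8 that rose among 42 tested (115 listed), and a median change of -0.6. Their counts of falls were 14 without both st10 samples, and 10 of 16 at a minimum of 5 RPKM. The TD-POZ models aug3.g7326 and aug3.g7325 went from 23.1 RPKM (7.66 to 52.2) to 0.744 RPKM (0.0452 to 3.83) and from 41.1 RPKM (18.6 to 122) to 3.02 RPKM (1.24 to 7.27). They fell by 3.55 and 3.34 on the log2 scale, and neither overlapped. Where these gene models have close copies, the uniqueness filter may affect their levels, but their similarity was not measured. Speckle-type POZ and TD-POZ models took 0.0695% (0.0622 to 0.109) of all RPKM in germ disc samples. In germ band samples they took 0.069% (0.0614 to 0.0722), so their summed share overlapped. At st1 to st3 they took 0.129 to 0.211%. Gastrula zinc finger proteins took 0.241 to 0.485% there, against 0.115 to 0.188% in germ disc samples. For the numbered zinc finger proteins the ranges were 0.514 to 0.671% and 0.323 to 0.482%.

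Among the leading germ band markers were enzymes of sulfur amino acid and lipid metabolism. aug3.g18316 (estrogen sulfotransferase, of an enzyme family that adds sulfate to steroids and other small molecules) is found on scaffold 2814 (3396 to 12055, plus strand). It had 0.229 RPKM (0 to 3.1) in the germ disc and 67.4 RPKM (25.1 to 118) in the germ band, and rose by 5.45 on the log2 scale (SE 0.32, adjusted p = 6.1e-07). aug3.g18899 carries the same gene ID and went from 0.0577 to 44.7 RPKM, so the 2 are not independent. Betaine--homocysteine methyltransferase (aug3.g3986), which remakes methionine from homocysteine, had 2.998 RPKM (1.8 to 9.26) and 149 RPKM (37.99 to 722). S-adenosylmethionine synthase (aug3.g7766), which turns methionine into the methyl donor of the cell, had 0.511 RPKM (0.263 to 1.21) and 43.8 RPKM (36.6 to 51.5). Cysteine dioxygenase (aug3.g27004), which oxidises cysteine, had 0.291 RPKM (0.0959 to 2.02) and 40.004 RPKM (22.6 to 57.98). The 3 rose by 5.37, 4.84 and 4.68 on the log2 scale, and the germ band samples of each lay wholly above the germ disc samples. Choline/ethanolamine kinase (aug3.g21089), which starts the synthesis of the main membrane phospholipids, went from 0.15 RPKM (0.0656 to 1.54) to 49.8 RPKM (20.8 to 85.4). Acetoacetyl-CoA synthetases, which activate a ketone body for lipid synthesis, were aug3.g20929 (from 0 RPKM [0 to 0.358] to 31.8 RPKM [24.4 to 52.2]) and aug3.g3110 (from 0.0928 RPKM [0 to 0.427] to 26.9 RPKM [18.99 to 37.3]). The first of them had no read in most germ disc samples and at least 24.4 RPKM in each germ band sample.

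Structural and secreted proteins completed the leading germ band markers. A tubulin beta chain (aug3.g25728), a building block of microtubules, went from 14.6 RPKM (6.69 to 44.2) to 484 RPKM (181 to 901) and rose by 4.72 on the log2 scale (SE 0.14, adjusted p = 1.6e-08). The linker histone H1E-like model aug3.g11669, of a family that compacts chromatin, went from 3.9 RPKM (0.757 to 8.29) to 139 RPKM (30.1 to 712). A vitellogenin-like model (aug3.g18714), of the family of yolk protein precursors, went from 0.636 RPKM (0.122 to 3.04) to 59.1 RPKM (18.8 to 111). The protease stubble-like model aug3.g2848, named after a *Drosophila* membrane protease of epithelial shape change, went from 0.311 RPKM (0.033 to 6.87) to 56.3 RPKM (37.1 to 69.4). No phase overlapped in these 4 gene models, and each kept its call in every alternative. The yolk use list of cathepsins, lipases and lipoproteins, to which the vitellogenin-like model belongs, rose in 15 and fell in 10 of 33 tested (114 listed).

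Glycolysis, the pathway that splits glucose to pyruvate, rose in nearly all of its members that could be tested. The list was made after values had been seen. Of 23 gene models listed, 17 were tested and 16 rose, 9 of them as germ band markers, with none that fell at an adjusted p under 0.05 in limma and 0 at an unadjusted p under 0.05 or with voom. The median change was 1.17. Glyceraldehyde-3-phosphate dehydrogenase (aug3.g12628) had 4.63 RPKM (2.26 to 21.6) in the germ disc and 134 RPKM (100.8 to 148) in the germ band, a rise of 4.09 on the log2 scale (SE 0.16, adjusted p = 5.2e-08). Aldolase (aug3.g11046) went from 18.8 RPKM (8.71 to 109) to 418 RPKM (301 to 548) and triosephosphate isomerase (aug3.g26608) from 16.7 RPKM (12.7 to 39.1) to 110.3 RPKM (98.2 to 148). All germ band samples exceeded all germ disc samples for these 3 consecutive enzymes. The exception was a pyruvate kinase model, aug3.g23215, which was not called. The list took 0.0271% (0.0233 to 0.0627) in the germ disc samples and 0.18% (0.159 to 0.21) in the germ band samples of all RPKM, and the 2 st1 samples, with 0.499 and 0.735%, lay above both phases.

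Enzymes that activate fatty acids and acetoacetate for metabolism rose in 21 and fell in 3 of 27 tested (52 listed, a list also made after values were seen). A long-chain fatty acid CoA ligase (aug3.g13804) went from 0.0635 RPKM (0 to 0.618) to 32.6 RPKM (11.3 to 43.9), a rise of 4.60 on the log2 scale. Of 61 respiratory chain and ATP synthase models tested (64 listed), 27 rose and 2 fell, but the median change was 0.29 and 17 rose with median-ratio scaling. The respiratory chain therefore moved less than glycolysis in its median, 0.29 against 1.17, a difference that was not tested. Transmembrane transporters of small molecules rose in 32 and fell in 6 of 54 tested, out of 266 listed, most of which did not reach the filter. At a minimum of 5 RPKM 18 of 27 rose, and without a filter 52 of 232. The transporter list took 0.244 and 0.260% of all RPKM at st1, against 0.0793 to 0.0834% in germ band samples. Sodium-dependent multivitamin transporter models aug3.g7414 and aug3.g7418 went from 0.044 to 12.9 and from 0.0674 to 10.3 RPKM in the medians. Cytochrome P450, glutathione S-transferase and other detoxification genes rose in 31 and fell in 10 of 64 tested (191 listed), and 15 of 26 rose at a minimum of 5 RPKM. Their germ band markers included cytochrome P450 307a1 (aug3.g6136), an enzyme of ecdysteroid hormone synthesis in insects, with 0.0942 RPKM (0.0843 to 0.238) and 16.1 RPKM (6.03 to 29.8). A glutathione S-transferase (aug3.g17448) rose by 3.95 on the log2 scale, from 4.93 to 94.5 RPKM.

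Genes of the secretory pathway rose more often than they fell. For translocation into the endoplasmic reticulum (ER) and folding there, a list made after values were seen, 25 of 39 tested (40 listed) rose, 18 marked the germ band and none fell at an adjusted p under 0.05 in limma (1 at an unadjusted p under 0.05, 0 with voom). The chaperone BiP, described as 78 kDa glucose-regulated protein (aug3.g26564), had 16.3 RPKM (8.02 to 34.03) and 252 RPKM (187 to 298) and rose by 3.78 on the log2 scale (SE 0.08, adjusted p = 3.3e-09). Calreticulin (aug3.g58), a chaperone of glycoproteins, went from 30.1 RPKM (19.5 to 68.5) to 326 RPKM (201 to 357), and protein disulfide-isomerase A6 (aug3.g2307), which forms disulfide bonds, from 23.6 RPKM (14.3 to 34.1) to 176 RPKM (92.96 to 224). None of the 3 overlapped. The family took 0.451% (0.365 to 0.552) in the germ disc samples and 0.986% (0.745 to 1.29) in the germ band samples of all RPKM and 0.734 to 0.964% at st1 to st3. Vesicle traffic rose in 95 and fell in 13 of 167 tested (189 listed), and 57 marked the germ band against 6 for the germ disc. Clathrin heavy chain, the coat of endocytic vesicles, had 2 models among the largest rises: aug3.g19195, from 10.7 RPKM (3.64 to 27.7) to 71.1 RPKM (52.8 to 71.6), and aug3.g19999, from 11.1 to 49.3 RPKM. Rab-18A-like (aug3.g5866), a vesicle GTPase, went the other way, from 63.02 RPKM (48.04 to 82.6) to 20.4 RPKM (5.25 to 28.9). The vacuolar proton pump, which acidifies lysosomes and other compartments, rose in 12 and fell in 1 of 19 tested (23 listed). Its list took 0.181 and 0.173% of all RPKM at st1, against 0.124 to 0.159% in germ band samples. Proteasome and COP9 signalosome subunits, which degrade tagged proteins and regulate the tagging, rose in 29 and fell in 4 of 46 tested (48 listed), with a median change of 0.59.

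Extracellular matrix and guidance genes were mostly higher at the germ band stages. Basement membrane, collagen and integrin genes, which build the sheet below epithelia and anchor cells to it, rose in 32 and fell in 4 of 41 tested (104 listed), and 22 marked the germ band. Nidogen-2 (aug3.g7060), which links laminin to collagen IV, had 0.131 RPKM (0.0435 to 2.87) in the germ disc and 28.97 RPKM (14.9 to 36.6) in the germ band. It rose by 4.23 on the log2 scale (SE 0.20, adjusted p = 2e-07), without overlap. SPARC (aug3.g26560), a collagen-binding matrix protein, went from 5.79 RPKM (3.24 to 14.02) to 70.1 RPKM (30.3 to 168). Papilin (aug3.g4424), also a matrix protein, and integrin alpha-9 (aug3.g26710) marked the germ disc instead, with 6.44 RPKM (3.81 to 23.9) against 0.677 RPKM (0.102 to 1.7) for papilin. The list took 0.0279% (0.0247 to 0.0476) in the germ disc samples and 0.116% (0.0811 to 0.178) in the germ band samples of all RPKM, and 0.142 to 0.194% at st1 to st3. Axon guidance genes rose in 27 and fell in 5 of 34 tested (68 listed), with a median change of 1.31. The secreted guide netrin-1 (aug3.g3497) had 0.0466 RPKM (0.0201 to 0.0674) and 11.2 RPKM (1.07 to 45.04), and a model of its receptor UNC5C (aug3.g17685) had 0.993 RPKM (0.363 to 1.59) and 24.03 RPKM (7.33 to 110.3). They rose by 3.35 and 3.80 on the log2 scale, and neither overlapped. Slit homolog 1 (aug3.g17108), a repellent guide, fell by 0.91 on the same scale. Cadherins and junction genes, which hold cells together, rose in 25 and fell in 3 of 43 tested (74 listed), with a lower median change of 0.43. Cadherin-23-like models led this group (aug3.g3008, from 1.48 to 8.15 RPKM).

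Hox genes, which set the identity of segments, rose almost without exception. All 22 gene models listed were tested: 21 rose and 1 fell, and 12 marked the germ band and 1 the germ disc. At a minimum of 5 RPKM, 12 of 13 rose. Without both st10 samples, 15 of the 22 rose and 1 fell. Antennapedia (aug3.g15600) had 0.0929 RPKM (0 to 0.741) in the germ disc and 19.7 RPKM (16.3 to 27.03) in the germ band, and rose by 4.17 on the log2 scale (SE 0.14, adjusted p = 2.8e-08). A second model with the same gene ID, aug3.g15601, rose by 3.19. The Hox gene that fell was labial (aug3.g7954, described as Hox-A1-like), with 28.99 RPKM (16.9 to 41.8) and 7.74 RPKM (3.95 to 13.3), by 1.89 on the log2 scale (SE 0.16, adjusted p = 6.1e-06), also without overlap. Ultrabithorax (aug3.g15595) rose by 3.64 but overlapped, since its st7 samples held 0.595 and 0.0173 RPKM. Caudal (aug3.g12643), a homeobox gene of the posterior end, had 0.103 RPKM (0.0514 to 0.176) and 2.82 RPKM (0.513 to 26.97), and rose by 2.26 (SE 0.13, adjusted p = 5.4e-07). Its germ band level was carried by st7, at 18.8 and 26.97 RPKM, against 0.878 and 0.513 RPKM at st10.

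Of 99 tested homeobox genes outside the Hox group (148 listed), 71 rose and 17 fell, with 39 markers of the germ band and 3 of the germ disc. At a minimum of 5 RPKM 45 of 64 rose, and without both st10 samples 54 of 99 rose and 16 fell. Engrailed (aug3.g7393, described as E30-like), which acts at segment borders, had 0.0123 RPKM (0 to 0.151) and 15.6 RPKM (1.06 to 25.99) and rose by 3.50 on the log2 scale (SE 0.26, adjusted p = 2.8e-06). Six3-1 (aug3.g3570), a gene of the anterior head in arthropods, went from 0.685 RPKM (0.052 to 1.03) to 14.5 RPKM (10.5 to 15.9), and a Pax-6-like model (aug3.g19881), of a family that acts in eyes and brain, from 0.167 RPKM (0 to 0.312) to 11.2 RPKM (4.93 to 19.5). None of the 3 overlapped. In the opposite direction, a B-H1 type homeobox gene (aug3.g8250) had 32.9 RPKM (26.1 to 38.8) and 3.24 RPKM (1.65 to 4.53) and fell by 2.98 on the log2 scale. Orthodenticle (aug3.g9172), a head gene, had 14.3 RPKM (0.494 to 95.8) and 14.6 RPKM (9.13 to 25.2) and was not called (change 0.19, adjusted p = 0.23), and Distal-less (aug3.g15531), a limb gene, overlapped between the phases (change -0.48). Both changed sign when the samples of 1 stage were left out: orthodenticle fell by 1.29 without both st4 samples, and Distal-less was at 0.27 without both st7 samples.

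**Figure D4:**
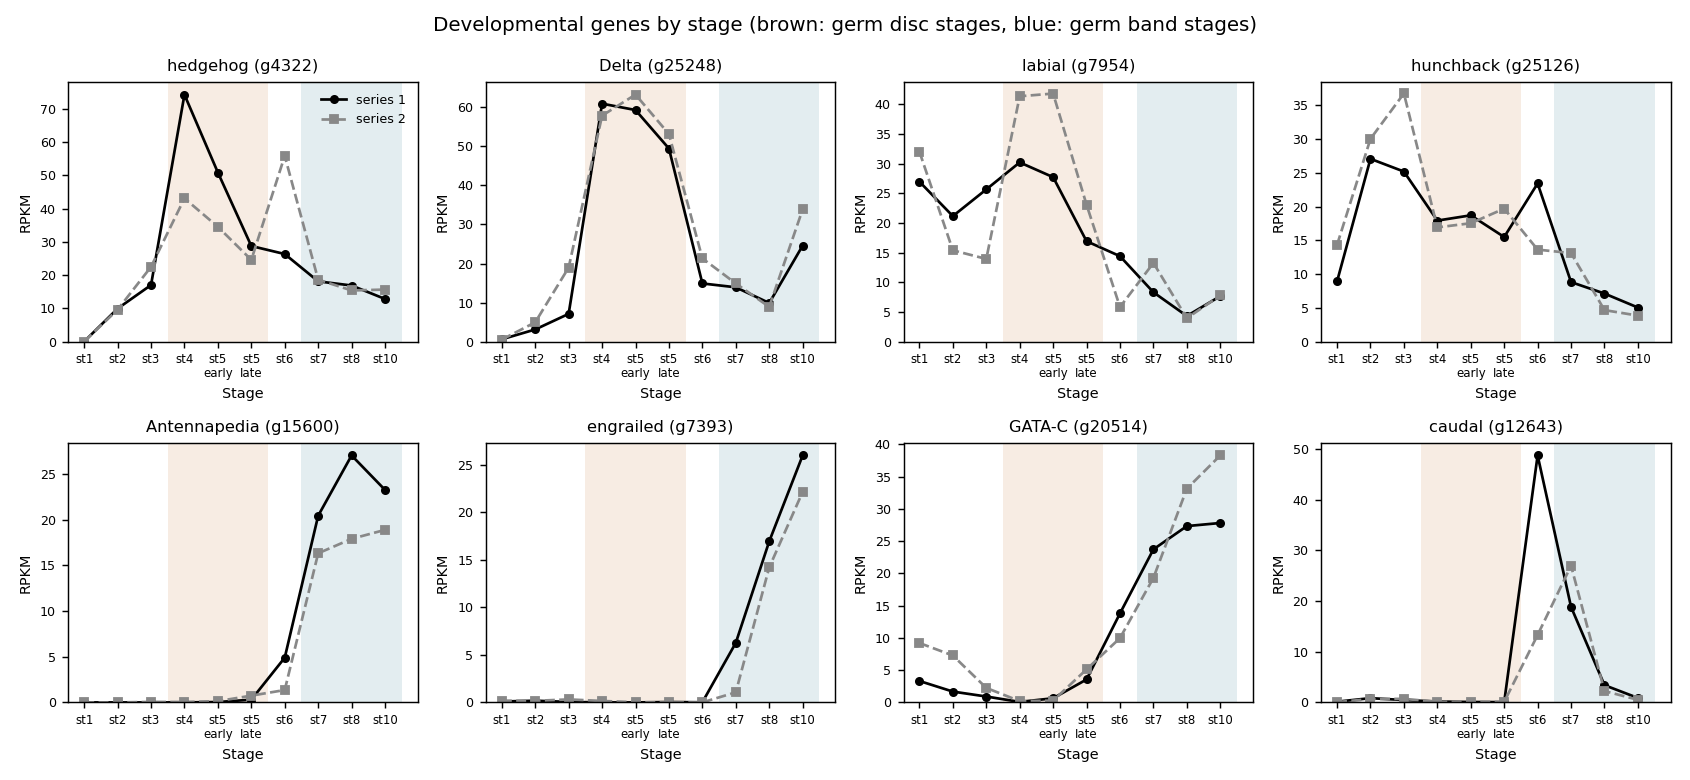
RPKM of 8 developmental genes at each of the 10 stages, in series 1 (black circles) and series 2 (grey squares), with the germ disc stages shaded brown and the germ band stages blue. The upper 4 genes (hedgehog, Delta, labial, hunchback) are higher at the germ disc stages, and the lower 4 (Antennapedia, engrailed, GATA-C, caudal) are at or near 0 at st4 and rise later. Caudal falls again to 0.513 and 0.878 RPKM by st10.

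Most tested members of the Hedgehog signalling pathway were higher at the germ disc stages. Of 9 gene models listed, 7 were tested and 5 fell, 3 of them with no overlap, and none rose (limma, adjusted p under 0.05; 0 at an unadjusted p under 0.05 or with voom). The ligand hedgehog (aug3.g4322; scaffold 547, 237576 to 301138, plus strand) had 38.8 RPKM (24.6 to 74.2) in the germ disc and 16.3 RPKM (12.8 to 18.6) in the germ band. It fell by 1.25 on the log2 scale (SE 0.15, adjusted p = 7.8e-05), and the lowest germ disc sample, of st5 late, was still above the highest germ band sample. The signal transducer smoothened (aug3.g8490) went from 21.6 RPKM (13.1 to 26.4) to 7.69 RPKM (7.21 to 10.4), and the transcription factor cubitus interruptus (aug3.g13321), which carries the signal to target genes, from 104 RPKM (74.3 to 167) to 52.3 RPKM (49.5 to 60.8). The 2 models of the receptor patched (aug3.g14374 and aug3.g24717) had changes of 0.02 and -0.03 and were not called (adjusted p = 0.89 and 0.88). Ligand, transducer and effector thus moved together in these samples, and the receptor models did not pass the test.

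The Notch and Delta pathway had members in both phases, with 6 that rose and 7 that fell among 14 tested (36 listed). The ligand Delta (aug3.g25248) had 58.6 RPKM (49.4 to 63.3) in the germ disc and 14.4 RPKM (8.9 to 33.9) in the germ band and fell by 1.79 on the log2 scale (SE 0.10, adjusted p = 4.6e-07). It did not overlap, though both st10 samples had more than both st7 samples. A second type of ligand, jagged-1b (aug3.g11708), rose from 0.62 RPKM (0.337 to 0.837) to 1.97 RPKM (1.72 to 2.99), as did 1 model of the Notch effector suppressor of hairless (aug3.g27389). Another model with that description (aug3.g15584) fell. Wnt genes, which act in the posterior growth of the spider embryo, rose in 15 and fell in 2 of 20 tested (28 listed). Among them, Wnt-11b-2 (aug3.g1356) went from 0.0653 RPKM (0 to 0.148) to 2.92 RPKM (1.65 to 7.63), the receptor frizzled-4 (aug3.g27554) from 9.06 RPKM (5.03 to 11.1) to 28.1 RPKM (14.4 to 52.5) and armadillo (aug3.g10093), the effector also known as beta-catenin, from 119.9 RPKM (104 to 148) to 276 RPKM (234 to 299). All 3 were without overlap. Axin-2-like (aug3.g6117), which holds the pathway back, fell by 0.86. Notum (aug3.g9270), an enzyme that inactivates Wnt ligands and was listed with the carboxylesterases, rose by 3.57 on the log2 scale, from 0.686 RPKM (0.417 to 2.96) to 26.5 RPKM (12.5 to 41.8).

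For BMP and TGF-beta signalling, 14 of 26 tested (40 listed) rose and 2 fell. The count of falls was 6 with the replicate block and without a filter, 5 with median-ratio scaling and without both st10 samples, and 4 without both st5 late samples. The ligand decapentaplegic (aug3.g16926) had 21.3 RPKM (6.1 to 29.6) in the germ disc and 24.1 RPKM (15.2 to 26.7) in the germ band. The phases overlapped, and the change of 0.41 (SE 0.11, adjusted p = 0.01) was -0.12 without both st4 samples (adjusted p = 0.4). Modulators of the pathway were among the gene models that rose without overlap. The BMP and activin membrane-bound inhibitor model aug3.g18541 went from 0.415 RPKM (0 to 4.16) to 11.7 RPKM (6.97 to 29.5), and a kielin/chordin-like model (aug3.g6492) from 0.689 RPKM (0.0869 to 3.53) to 9.05 RPKM (4.88 to 11.3). The signal transducer mothers against dpp (aug3.g26552) and the receptor activin receptor type-2A (aug3.g11934) fell by 0.83 and 0.77 on the log2 scale without overlap. Receptor tyrosine kinases and their ligands rose in 10 and fell in 3 of 17 tested (32 listed), with an epidermal growth factor receptor model (aug3.g18901) going from 1.66 RPKM (0.647 to 2.87) to 9.38 RPKM (6.3 to 28.7) and a fibroblast growth factor receptor 3-like model (aug3.g26271) from 2.72 RPKM (0.819 to 7.36) to 0.361 RPKM (0.0296 to 0.478). Toll receptors, of which some elongate the germ band of insects, rose in 4 of 5 tested (25 listed), and the other was not called. The largest change was that of a Tollo model (aug3.g6063), from 1.08 RPKM (0.428 to 1.7) to 26.4 RPKM (12.7 to 42.0).

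Among the other transcription factors, the lists that follow rose more often than they fell, unlike the zinc finger lists above. Forkhead, T-box and GATA factors rose in 16 and fell in 5 of 24 tested (33 listed), and 10 of 17 rose at a minimum of 5 RPKM. Their summed share of all RPKM overlapped between the phases, at 0.0408% (0.0276 to 0.0491) in germ disc and 0.0399% (0.0336 to 0.0604) in germ band samples. So did that of the Sox genes, at 0.0583% (0.0476 to 0.0671) and 0.0576% (0.0516 to 0.0804). The shares of the basic helix-loop-helix and nuclear receptor lists overlapped as well, with higher medians in the germ band. GATA-C (aug3.g20514), of a family that acts in endoderm and blood, had 0.461 RPKM (0.0772 to 5.12) and 27.6 RPKM (19.3 to 38.3) and rose by 3.80 on the log2 scale (SE 0.14, adjusted p = 3.9e-08). A forkhead box B1-like model (aug3.g9968) went from 0.386 to 18.8 RPKM. A GATA-4 model (aug3.g26874) instead marked the germ disc, with 60.4 RPKM (26.9 to 86.9) and 11.1 RPKM (3.92 to 19.2). Forkhead (aug3.g6985), a gene of endoderm and gut, fell by 0.86 with overlap, from 39.9 RPKM (29.04 to 50.2) to 29.7 RPKM (8.5 to 34.96), and was not called without both st10 samples (-0.32, adjusted p = 0.057). Twist (aug3.g14287), a gene of mesoderm, rose by 1.92 with overlap, from 2.41 RPKM (0.389 to 7.9) to 14.2 RPKM (2.06 to 30.2). Sox genes rose in 7 and fell in 2 of 10 tested (14 listed), with a SOX-14 model (aug3.g8208) going from 3.84 RPKM (2.76 to 9.93) to 47.5 RPKM (27.3 to 121) and a Sox-2 model (aug3.g11061), of a family that acts in neural progenitors, from 1.86 RPKM (1.22 to 6.98) to 21.3 RPKM (17.99 to 50.5). Basic helix-loop-helix factors rose in 14 and fell in 2 of 21 tested (37 listed), among them an achaete-scute homolog (aug3.g15679), a gene of neural precursors, from 1.14 to 6.06 RPKM. The count of rises was 8 without both st10 samples and 7 without the stage term. Nuclear receptors and ecdysteroid genes rose in 10 and fell in 3 of 18 tested (30 listed). E75-like (aug3.g11022), an ecdysone-induced receptor in insects, went from 2.49 to 8.42 RPKM and FTZ-F1 (aug3.g26994), an orphan receptor, from 14.5 to 6.12 RPKM. Hunchback (aug3.g25126), a gap gene of the anterior body, marked the germ disc with 17.7 RPKM (15.5 to 19.7) against 6.09 RPKM (3.86 to 13.1).

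Families of cell division and chromatin had members in both phases. For cell cycle and DNA replication, 49 rose (40.5%) and 24 fell (19.8%) among 121 tested (141 listed). These shares were near the 36.9% and 25.3% of all gene models tested. The replication helicase subunits mcm3 (aug3.g12953) and mcm2 (aug3.g7713) went from 38.7 RPKM (21.1 to 79.96) to 131 RPKM (95.03 to 147) and from 39.8 RPKM (24.2 to 63.6) to 128 RPKM (108 to 164), while cyclin-E1 (aug3.g7775), which drives entry into S phase, fell by 1.46 on the log2 scale, from 90.5 RPKM (57.3 to 137) to 32.2 RPKM (21.5 to 50.5). The count of falls was 15 without st4 replicate 1, and 13 without both st4 samples or without both st10 samples. Among 17 histones tested (24 listed), 4 rose (7 with the replicate block) and 5 fell, and H1 and H3 models lay at opposite ends. Histone H3 models aug3.g12366 and aug3.g12364 fell by 3.08 and 2.03 on the log2 scale. Poly(A) selection and the near-identical copies of histone genes limit these values. Chromatin modifiers and remodellers counted 36 that rose and 32 that fell among 105 tested (143 listed). Heat shock proteins and chaperonins counted 25 and 14 among 68 (75 listed), and tRNA ligases and translation factors 35 and 30 among 109 (122 listed), with median changes of 0.12 and -0.02. The shares of these last 3 families were also close to those of all gene models tested.

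Among lists for differentiated tissues, those of blood and muscle rose in most of the members tested, while neuron markers rose in 6 and fell in 3 of 21 tested (184 listed) and cuticle markers rose in 3 and fell in 2 of 7 (67 listed). All 9 hemocyanin and phenoloxidase models, proteins of spider blood, rose, with a median change of 2.68, but only aug3.g4197 (hemocyanin F chain, 0.0218 RPKM [0 to 0.198] against 0.775 RPKM [0.377 to 73.6]) was without overlap, and 2 were called when the 3 stages of a phase were not given their own means. Without both st10 samples 7 rose and the median change was 0.63. The 9 summed to 0.224 to 1.45 RPKM in germ disc samples and 1.58 to 1444 RPKM in germ band samples. Their share of all RPKM was 0.000307 and 0.000432% at st7, 0.00218 and 0.00277% at st8 and 0.236 and 0.302% at st10, so the high levels were those of st10. Muscle contractile genes rose in 12 of 16 tested (54 listed), with 4 germ band markers and none that fell at an adjusted p under 0.05 (0 at an unadjusted p under 0.05, 1 with voom). A titin model (aug3.g9685), the giant spring of muscle, went from 0.107 RPKM (0 to 0.611) to 2.16 RPKM (1.07 to 6.19). The muscle contractile list took 0.0645% (0.0546 to 0.0903) of all RPKM in germ disc samples and 0.112% (0.0993 to 0.129) in germ band samples. The 2 st1 samples, with 0.163 and 0.165%, lay above both phases, and those of st2 and st3 held 0.0733 to 0.0904%. The defining muscle markers summed to 70.2 to 219 RPKM and 197 to 270 RPKM, and those of neurons to 117 to 193 RPKM and 215 to 405 RPKM, so the muscle list overlapped between the phases and the neuron list did not. Markers of cuticle summed to 70.4 to 165 RPKM in the germ disc and 43.7 to 76.0 RPKM in the germ band. Markers of yolk (vitellogenins and cathepsins) rose in 3 and fell in 3 of 7 tested (34 listed). They summed to 653 to 767 RPKM in the germ disc and 531 to 817 RPKM in the germ band.

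Within a phase the markers were not flat. Of the 1454 germ disc markers, 76.9% had their highest mean of the 3 germ disc stages at st4, and 73.1% fell from st4 to st5 early and again to st5 late, beside 35.0% and 26.5% of all gene models tested. Of the 2081 germ band markers, 72.7% were highest of the 3 germ band stages at st10, and 61.4% rose from st7 to st8 and to st10, beside 43.2% and 28.6% of all tested. The rule asks for a separation between the phases and so favours markers with their extremes away from st6. These shares are therefore a description. Over all 10 stages, 36.5% of the germ disc markers peaked at st4 and 42.4% of the germ band markers at st10. A peak at st1, st2 or st3, before the germ disc, was seen in 46.4% of the germ disc markers, 39% of the germ band markers and 49.2% of all tested. Many markers were thus higher in the earlier embryo than in either phase. Fewer were near 0 there: 390 germ band markers (18.7%) and 59 germ disc markers (4.06%) stayed under 1 RPKM in all 6 samples of st1 to st3.

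**Figure D5:**
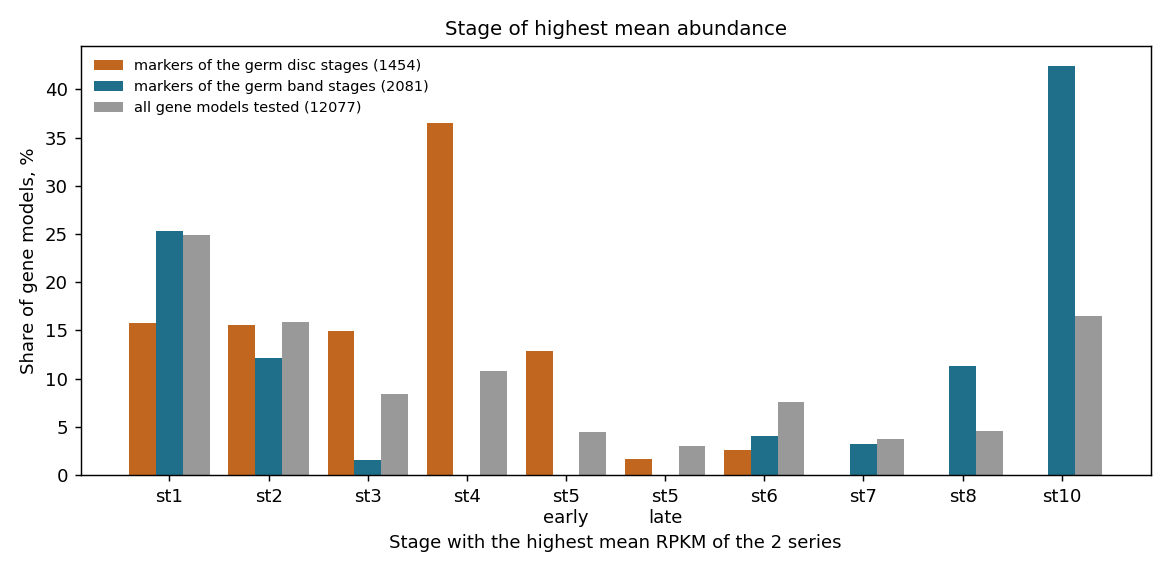
Share, in percent, of the 1454 germ disc markers (brown), the 2081 germ band markers (blue) and all 12077 gene models tested (grey) whose highest mean RPKM of the 2 series fell at each of the 10 stages. The germ disc markers peak most often at st4 (36.5%) and the germ band markers at st10 (42.4%), and 25.3% of the germ band markers peak at st1, beside 24.9% of all gene models tested.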

How the data were processed

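The 20 samples were grouped by the stage and series in their labels, and the number of a series names its pair of parents. Per the methods of the study, trimmed reads were aligned by the authors with BLAT to the assembly Ptep_1.0. Alignments were kept by their coverage, identity and uniqueness, and htseq-count (HTSeq 0.6.1p1) counted them on AUGUSTUS gene models, by strand. The authors deposited abundance as RPKM, and 0 further columns of values were left unused. Reads and library totals were recovered from the RPKM values: 99.995% of the gene models with a read gave whole reads in every sample (within 0.005 reads).

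Tests used log2(RPKM + 1) of gene models with at least 1 RPKM in at least 2 of the 12 samples, with limma 3.58.1 (lmFit, eBayes with trend) in R 4.3.3. The model held 6 stage means and the contrast was the mean of st7, st8 and st10 minus that of st4, st5 early and st5 late. Same-numbered samples deviated together, with correlations of 0.375 to 0.707 over 15 pairs of stages, so the samples of a series are not independent. The main model held no series term. Other steps used Python 3.11.15, numpy 2.4.6, scipy 1.17.1, pandas 2.3.3 and matplotlib 3.10.9.

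Families were searched by words in the descriptions, and 7 of them were added after values had been seen. The members and lists were chosen with earlier results of these data known. The genes named were, for each phase, the 12 described strong markers with the largest change (at most 2 with the same description), the 2 with no description, up to 3 members a direction of each family with no overlap, and 5 developmental genes. Genes beyond these were named after their values had been seen (those with a RefSeq synonym, aug3.g24980 and aug3.g23215). Gene names beside the descriptions came from RefSeq's CAS_Ptep_4.0, where 16060 of 18859 gene IDs were found. Coordinates are those of Ptep_1.0.

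The alternatives were no filter, a minimum of 5 RPKM, a pseudocount of 0.1, median-ratio scaling, the replicate block, all 20 samples in the fit, no stage term, voom on the recovered reads, leaving out each sample or stage, and each series alone. Other limits of detection, and the alternatives for the count of detected gene models, were chosen after seeing the data.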

Additional observations from a re-analysis of the deposited data

Results flagged for a closer look

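The change from germ disc to germ band was compared between the 2 series with an interaction term in limma. At an adjusted p under 0.05, 194 of 12077 gene models differed between the series (1922 at an unadjusted p under 0.05). The changes of the series correlated with r = 0.936 (a description, since gene models are not independent of each other) and had the same sign in 87.7% of them. Each series had 1 library at a stage.

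Of the 299 gene models taken up by the naming rule, 6 were among the 194. The linker histone aug3.g11669 had log2 changes of 5.76 in series 1 and 4.38 in series 2, a difference (series 2 minus series 1) of -1.38 (adjusted p = 0.0041). A second H1E model, aug3.g16306, had changes of 3.13 and 1.48, a difference of -1.65 (adjusted p = 0.0028). The ABHD11-like model aug3.g9727 had changes of -3.71 in series 1 and -6.15 in series 2, a difference of -2.44 (adjusted p = 0.0028). Elongation factor 1-beta, aug3.g14286, had changes of 1.81 and 2.85, a difference of 1.03 (adjusted p = 0.0096). Subunit 1 of the cytochrome b-c1 complex, aug3.g5769, had changes of 0.62 and 1.5, a difference of 0.89 (adjusted p = 0.041). Hairy, aug3.g4026, had changes of -0.13 and 0.62, a difference of 0.75 (adjusted p = 0.036). Both linker histone models had the larger change in series 1.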

How the results depend on the processing

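With the replicate block, which gives each pair of parents its own term, 5128 gene models rose and 3673 fell. The block moved by over 1.5 times the counts given above with it (falls of splicing, nuclear pore, mitochondrial ribosomal and BMP genes, rises of splicing, histone and gastrula zinc finger genes). It also took from 0 to 1 the rises of cytosolic ribosomal and germline genes and the falls of ER folding genes. No other family count in the text moved by as much. Within 1 series, where limma has 1 sample a stage, 2047 rose and 1227 fell in series 1, and 1870 rose and 1300 fell in series 2, a fit that has fewer samples and also no stage term. Without the stage term all 12 samples gave 3787 and 2642. The difference in detected gene models was 325.3 in series 1 and 382.7 in series 2, both at an exact permutation p = 0.1. At limits of 0.5 and 5 RPKM it was 243.3 and 507.3 (exact permutation p = 0.00216 and 0.00649).

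Leaving out 1 sample gave 4117 to 4455 rises, 2747 to 3044 falls, 2103 to 2487 germ band markers, 1466 to 1697 germ disc markers and a difference of 307.4 to 386.0 detected gene models. Leaving out a whole stage gave 3703 to 4547 rises and 2527 to 3049 falls, with 2196 to 3097 and 1531 to 2155 markers, since fewer samples have to be separated. Median-ratio scaling lowered the share of rises among calls from 59.3 to 52.9% (4109 rises and 3663 falls), and the median change over all tested from 0.11 to 0.02.

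Of the 274 named gene models that marked a phase, 199 kept call and direction in every alternative, 75 lost the call in at least 1, and 0 reversed. Among the others, 3 reversed: aug3.g16926 was -0.12 without both st4 samples (adjusted p = 0.4), aug3.g9172 was -1.29 without both st4 samples (adjusted p = 9.8e-05) and aug3.g15531 was 0.27 without both st7 samples (adjusted p = 0.15). The cause was not tested. Notch, tRNA ligase, histone, mRNA decay, serine protease and chromatin families did not keep 1 direction over the alternatives. Depth limits the lowest gene models, at 0.1024 to 0.1857 RPKM for 3 reads.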

Other observations

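At st6, which was left out of the comparison, the 2 series differed, and the library of series 2 stood apart from the other 19. It had 9820 gene models at 1 RPKM, the lowest of all 20 libraries, 10.18% of its reads in the top 10 gene models and 93.02% of its reads on gene models, both the highest. Cytosolic ribosomal proteins took 32.3% of its RPKM, against 24.7% in the st6 library of series 1. The st6 library of series 1 reached the range of the germ band samples in 45.3% of the 2081 germ band markers and stayed within that of the germ disc samples in 16.0%. For the st6 library of series 2 the shares were 22.8% and 59.7%. Among the 1454 germ disc markers, series 1 was still within the germ disc range in 26.3% and already within the germ band range in 30.4%, and series 2 in 25.2% and 58.2%. In series 2 low levels were thus the more frequent in markers of both phases, which is no position between them. The part of these library differences in the shares was not tested.

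Strong markers were also counted by their place along the scaffolds. Of the 106 strong germ disc markers, 14 (13.2%) lay next to another strong germ disc marker in the order of gene models, and of the 237 strong germ band markers 10 (4.22%) did so. Among all markers the shares were 23% for the germ disc and 25.3% for the germ band. These shares depend on the size of each set, and none was counted for other gene models in sets of equal size. Whether markers cluster was not tested.

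Serine proteases and their inhibitors, which had 8 that rose and 6 that fell among 17 tested (72 listed), had members near both ends of the range. The stubble-like model aug3.g2848 rose by 4.67 on the log2 scale, while the stubble model aug3.g15440 and the proclotting enzyme model aug3.g17419 had changes of -2.48 and -2.47.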
